A study of Mus musculus with 31 samples.

Results

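Neighbouring systems of chromatin repression were followed in mouse neuroblastoma: Polycomb repressive complex 2 (PRC2) and the enzymes that write, maintain and remove DNA methylation. The set held 10 genes, picked by gene symbol when earlier results of these data were known: the PRC2 genes Ezh1, Ezh2, Eed and Suz12, the DNA methyltransferases Dnmt1, Dnmt3a and Dnmt3b, the maintenance factors Uhrf1 and Hells, and the dioxygenase Tet1. All 10 had a row among the 17306 rows of the expression table, and 9 of them were above log2 4 in at least 10 tumors, the level that 9322 rows of the table reached and that was required for a test. Ezh1 did not reach it in any tumor. In RefSeq (GRCm38.p6) the genes lie on chromosomes 11 (Ezh1 and Suz12), 6 (Ezh2), 7 (Eed), 9 (Dnmt1), 12 (Dnmt3a), 2 (Dnmt3b), 17 (Uhrf1), 19 (Hells) and 10 (Tet1).

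The 31 tumors came from mice that all carried the TH-MYCN transgene, human MYCN driven by the tyrosine hydroxylase promoter in cells of the sympathetic lineage. In the first group, 10 MYCN tumors, the transgene was the only engineered change. In the others it was combined with a point mutation knocked into the mouse Alk receptor gene, R1279Q in 10 tumors (MYCN/Alk R1279Q) and F1178L in 11 tumors (MYCN/Alk F1178L), each from 1 knock-in line. The study describes tumors of the backgrounds 129S2 and 129B6F1, the latter a first-generation cross with C57Bl/6. Its description of the animals gives the background, sex and age of 18 MYCN/Alk tumors. Of these, 4 F1178L tumors were 129S2 (2 females and 2 males, 5 to 6 weeks old), 6 F1178L tumors were 129B6F1 (3 females and 3 males, 9 to 19 weeks), 5 R1279Q tumors were 129S2 (all males, 8 to 11 weeks) and 3 R1279Q tumors were 129B6F1 (2 females and 1 male, 17 to 27 weeks). Age therefore went with background within each mutation, and the influence of age and background cannot be told apart. Within 129S2, age also went with mutation. The background of the MYCN tumors and of 3 MYCN/Alk tumors is not given in the sources used here, nor is it stated which tumors shared a mouse, so that p-values may be too small where tumors did.

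One array was hybridized per tumor, and levels are the deposited GCRMA values on the log2 scale, on which a difference of 1 is a doubling. The array medians lay between 4.22 and 4.66. The sympathetic markers Phox2a, Isl1, Gata3, Th and Dbh were above log2 4 in all 31 tumors. Hand2, the remaining sympathetic marker with a row, exceeded log2 4 in 26 tumors and stayed close to it, its genotype means lying between 4.27 and 4.44. The adrenal cortex markers and the T and B cell markers did not pass the filter. Neither the human transgene nor the point mutations are read by these arrays, so the genotype labels could not be checked. Within the MYCN group, tumor 22 stood apart. Its mean over 21 DNA replication genes was 8.53, against 9.31 to 9.89 in the other 9 MYCN tumors, of which tumor 26 was the lowest.

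PRC2 methylates histone H3 on lysine 27, a mark of silenced developmental genes. Its catalytic subunit is either EZH2, typical of dividing cells, or EZH1, which persists in resting cells, and EED and SUZ12 are required for the activity of both. DNA methylation is set on unmethylated CpG sites by DNMT3A and DNMT3B and is copied after each round of replication by DNMT1, which UHRF1 recruits to hemimethylated DNA and for which the chromatin remodeler HELLS opens nucleosomal DNA, while TET1 oxidizes methylcytosine and starts its removal. Several of these genes are expressed mainly in S phase under E2F transcription factors, and EZH2 is known as a repressor of differentiation genes in neuroblastoma cells.

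The promoters of the set were read because its members moved together with DNA replication genes in the tumors, as described below. RefSeq (GRCm38.p6) gave 15 windows for the 10 genes, each from 250 bases before to 50 bases after a transcription start. An E2F consensus of 8 letters was searched on both strands in its 4 spellings, TTTCCCGC, TTTCGCGC, TTTGCCGC and TTTGGCGC. It was present in 5 of the 15 windows, 1 each of Ezh2, Suz12, Dnmt1, Uhrf1 and Hells, and in 2.26% of all 32851 windows of the same length. Each spelling holds a CpG. The ratio of observed to expected CpG in these 5 windows lay between percentiles 88.1 and 97.7 of all windows. The share of the motif among windows of like CpG content was not computed. Of the DNA replication genes, 9 of the 18 that had a window held the motif. CACGTG, the E-box bound by the MYC family, was in 1 of the 15 windows, at a downstream start of Dnmt3a, and in 7.15% of all windows. No window of the set held both motifs. A match is a description of the letters and does not show binding. The 5 windows with a match are printed 5′ to 3′ on the strand of the gene, with the matches in capitals. They lie at chr6:47594981-47595280 on the minus strand (Ezh2), chr11:79992856-79993155 on the plus strand (Suz12), chr9:20952574-20952873 on the minus strand (Dnmt1), chr17:56304063-56304362 on the plus strand (Uhrf1) and chr19:38930740-38931039 on the plus strand (Hells).
Ezh2: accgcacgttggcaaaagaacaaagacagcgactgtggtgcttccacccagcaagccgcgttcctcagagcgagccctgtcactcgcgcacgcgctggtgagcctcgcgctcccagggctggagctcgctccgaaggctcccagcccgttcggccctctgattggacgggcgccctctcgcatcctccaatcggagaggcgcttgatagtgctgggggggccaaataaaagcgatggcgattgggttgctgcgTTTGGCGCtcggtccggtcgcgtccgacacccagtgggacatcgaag
Suz12: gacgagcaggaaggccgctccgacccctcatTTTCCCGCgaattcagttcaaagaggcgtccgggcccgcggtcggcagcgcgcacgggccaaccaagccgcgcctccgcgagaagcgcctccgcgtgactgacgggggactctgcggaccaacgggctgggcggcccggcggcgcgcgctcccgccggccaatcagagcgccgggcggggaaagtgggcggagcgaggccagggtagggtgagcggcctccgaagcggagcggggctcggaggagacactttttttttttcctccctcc
Dnmt1: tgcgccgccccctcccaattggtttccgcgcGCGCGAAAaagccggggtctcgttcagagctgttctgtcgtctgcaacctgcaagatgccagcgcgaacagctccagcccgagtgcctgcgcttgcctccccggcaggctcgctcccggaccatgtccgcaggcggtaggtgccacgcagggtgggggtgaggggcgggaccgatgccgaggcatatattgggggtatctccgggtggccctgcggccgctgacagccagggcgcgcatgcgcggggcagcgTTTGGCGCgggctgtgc
Uhrf1: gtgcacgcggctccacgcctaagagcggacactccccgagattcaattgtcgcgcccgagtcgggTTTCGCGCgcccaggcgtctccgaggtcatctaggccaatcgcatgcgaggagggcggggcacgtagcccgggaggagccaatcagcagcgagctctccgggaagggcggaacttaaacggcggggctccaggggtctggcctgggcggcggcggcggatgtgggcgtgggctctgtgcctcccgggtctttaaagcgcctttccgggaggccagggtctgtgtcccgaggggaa
Hells: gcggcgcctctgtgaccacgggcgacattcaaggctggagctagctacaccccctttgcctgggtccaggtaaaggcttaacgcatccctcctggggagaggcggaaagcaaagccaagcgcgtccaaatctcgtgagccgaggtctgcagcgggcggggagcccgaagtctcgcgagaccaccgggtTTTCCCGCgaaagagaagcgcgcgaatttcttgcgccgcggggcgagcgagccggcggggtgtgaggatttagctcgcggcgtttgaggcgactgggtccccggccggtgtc
In Dnmt1 both orientations of the motif are present, 1 upstream and 1 just after the start, and in Ezh2 the match lies next to the start.

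To ask whether an activated Alk allele goes with another level of the repressive machinery, the 21 MYCN/Alk tumors, taken as the average of both mutations, were first compared with the 10 MYCN tumors. Of the 9 genes tested, 6 were lower in MYCN/Alk tumors and none was higher: Dnmt3b, Ezh2, Uhrf1, Eed, Tet1 and Suz12 (limma, Benjamini-Hochberg adjusted p under 0.05 over all rows tested). Lower values were common in this comparison, since 21.6% of the 9322 rows tested were called lower. The median difference was -0.40 over the 9 genes and -0.04 over all rows. The calls of Ezh2, Eed and Dnmt3b held under the other normalizations and moderations tried and without the filter (Dnmt3b does not pass a filter at log2 6 and was not tested there), whereas Suz12, Uhrf1 and Tet1 lost theirs with quantile-normalized arrays, with equalized array medians or without the filter. The count was 8 of 9 without MYCN tumor 22 and also without tumors 22 and 26 together, a setting added after the values were seen, and it was 3 of 9 without MYCN tumor 21, 23, 26, 33 or 34. With the F1178L tumors alone, 8 of 9 genes were lower than in MYCN tumors, against a background of 26.4% of rows, and all 8 calls held when any 1 tumor was left out. They did not all hold within a background: with the F1178L tumors of 129B6F1 mice only, 3 of 9 were called (Eed, Dnmt3b and Tet1), against 12.8% of rows, and Ezh2, Suz12, Dnmt1, Uhrf1 and Hells lost their calls, with Hells at -0.16 (limma adjusted p = 0.61) and Dnmt1 at -0.14 (limma adjusted p = 0.53). With the R1279Q tumors alone none of the 9 passed, against a background of 7.04%. These comparisons share the 10 MYCN tumors. The methods' Student test for MYCN/Alk against MYCN found 6 of the 9 genes at an unadjusted p up to 0.05 (48.1% of rows, either direction) and 4 after adjustment (39.1%), without Uhrf1 and Tet1.

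**Figure D1:**
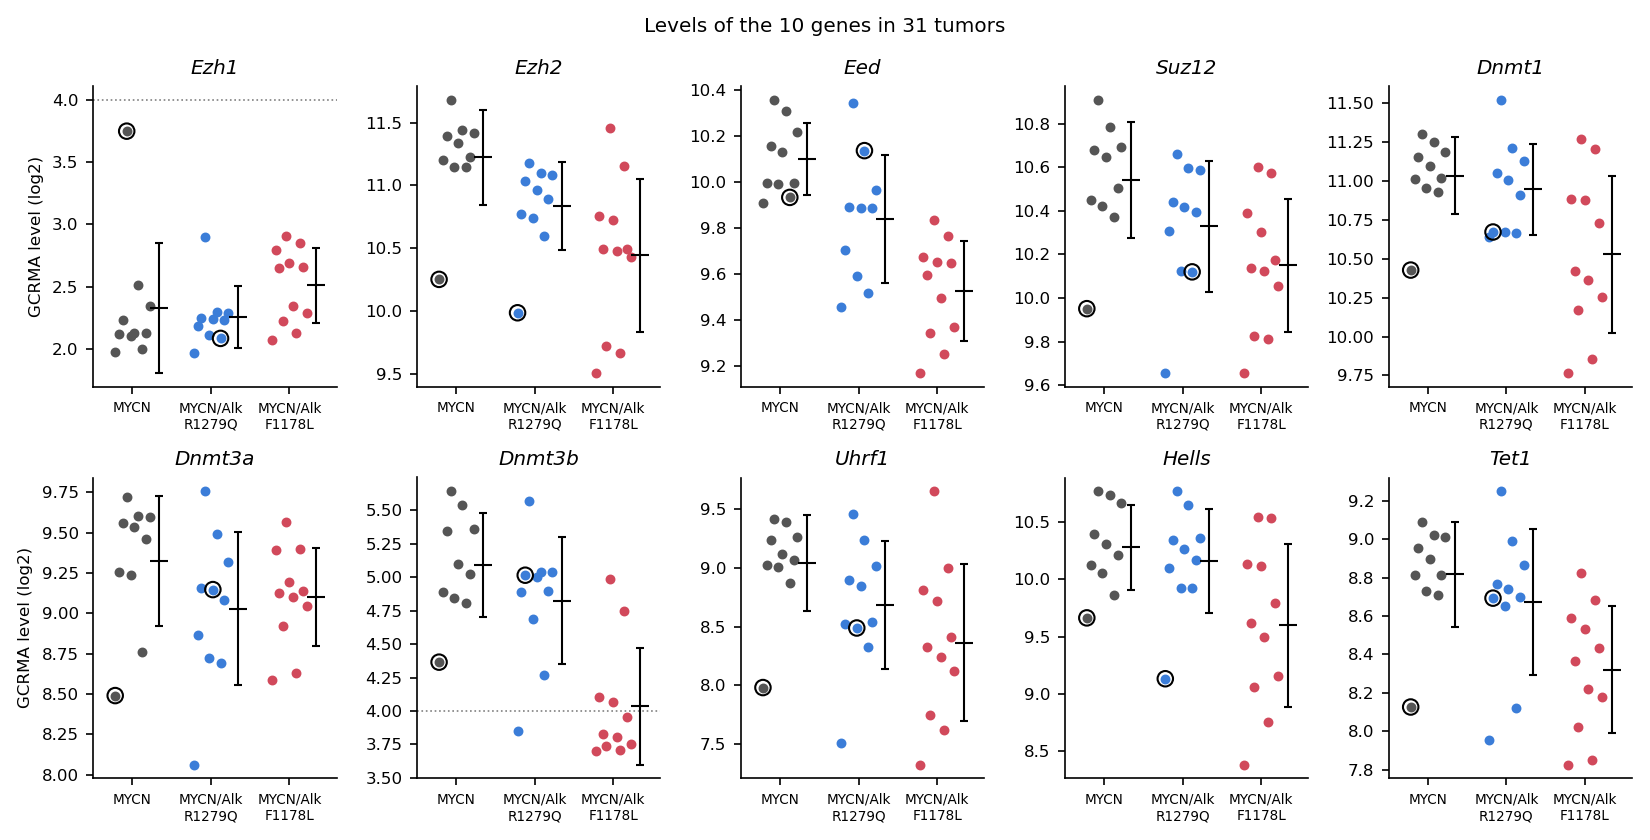
Deposited GCRMA level (log2) of each of the 10 genes in every tumor, by genotype (10 MYCN, 10 MYCN/Alk R1279Q, 11 MYCN/Alk F1178L), with mean ± SD as bars; open rings mark MYCN tumor 22 and R1279Q tumor 9, and the dotted line marks log2 4. All 11 F1178L tumors lie below all 10 MYCN tumors for Eed, tumor 22 is the lowest MYCN tumor for Ezh2 and Dnmt1, and Dnmt3b falls below log2 4 in 7 F1178L tumors.

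Among the PRC2 genes, Eed, whose product binds methylated lysine 27 and stimulates the enzyme, separated the genotypes best. In the MYCN tumors its level ran from 9.91 to 10.36 with a median of 10.06. In the R1279Q tumors it ran from 9.46 to 10.34 (median 9.89), and in the F1178L tumors from 9.17 to 9.83 (median 9.59). Every F1178L tumor was thus below every MYCN tumor, which was the case for no other gene of the set and for 1.02% of all rows tested. The difference of F1178L to MYCN was -0.57 ± 0.10 (SE), a 1.49-fold lower level (limma adjusted p = 5.4e-05), and that of MYCN/Alk to MYCN was -0.42 ± 0.09 (limma adjusted p = 0.00057).

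Ezh2, the methyltransferase itself, was at 10.25 in MYCN tumor 22 and between 11.14 and 11.68 in the other MYCN tumors (median of all 10, 11.28). The R1279Q tumors ran from 9.99 to 11.18 (median 10.93), and tumor 9, at 9.99, lay below the next R1279Q tumor at 10.59. The F1178L tumors spread most, from 9.51 to 11.46 (median 10.49), so that the genotypes overlapped. Ezh2 was 1.50-fold lower in MYCN/Alk tumors (-0.58 ± 0.18, limma adjusted p = 0.0090) and 1.72-fold lower in F1178L tumors (-0.78 ± 0.20, limma adjusted p = 0.0022) than in MYCN tumors.

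Suz12, the scaffold that joins the complex, showed the smallest differences of the PRC2 genes tested. Its level was 9.95 to 10.91 (median 10.58) in MYCN, 9.66 to 10.66 (median 10.40) in R1279Q and 9.66 to 10.60 (median 10.14) in F1178L tumors, with wide overlap. It was lower by 1.23-fold in MYCN/Alk (-0.30 ± 0.11, limma adjusted p = 0.035) and by 1.31-fold in F1178L tumors (-0.39 ± 0.13, limma adjusted p = 0.014), and the F1178L call was lost with equalized array medians (limma adjusted p = 0.053).

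Ezh1, the alternative catalytic subunit, was not tested. Its row lay between 1.97 and 3.75 over the 31 tumors, below log2 4 in all of them. The highest value, 3.75, was that of MYCN tumor 22, with the other MYCN tumors between 1.97 and 2.51.

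The maintenance methyltransferase Dnmt1 was at 10.43 to 11.30 (median 11.06) in MYCN, 10.64 to 11.52 (median 10.96) in R1279Q and 9.76 to 11.27 (median 10.42) in F1178L tumors. Of the F1178L tumors, 6 were below the lowest MYCN tumor, tumor 22 at 10.43. The difference to MYCN passed the test in F1178L (-0.51 ± 0.16, limma adjusted p = 0.011) and was -0.30 ± 0.14 for the average of both mutations (limma adjusted p = 0.095, and 0.038 without MYCN tumor 22) and -0.09 ± 0.17 in R1279Q (limma adjusted p = 0.76, 95% interval -0.42 to 0.25).

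Dnmt3b, a de novo methyltransferase, gave the largest F1178L difference of the set, at a signal close to background. MYCN tumors ran from 4.36 to 5.64 (median 5.06), R1279Q tumors from 3.85 to 5.57 (median 4.95) and F1178L tumors from 3.70 to 4.99 (median 3.83). It was below log2 4 in 7 of 11 F1178L tumors, in 1 of 10 R1279Q tumors and in none of the MYCN tumors. The row passed the filter mainly through the MYCN and R1279Q tumors, so the size of its differences to MYCN is given as a bound. With values under log2 4 set to 4, Dnmt3b was at least 1.89-fold lower in F1178L than in MYCN tumors (difference of the measured values -1.05 ± 0.19, limma adjusted p = 4.4e-05) and at least 1.50-fold lower in MYCN/Alk tumors (measured -0.66 ± 0.16, limma adjusted p = 0.0020).

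Dnmt3a, the other de novo enzyme, did not pass in the F1178L comparison. Its level was 8.49 to 9.72 (median 9.50) in MYCN, 8.06 to 9.76 (median 9.12) in R1279Q and 8.59 to 9.57 (median 9.13) in F1178L tumors. No comparison between genotypes passed the test as fitted on all tumors. The F1178L difference to MYCN was -0.22 ± 0.17 (limma adjusted p = 0.29, 95% interval -0.57 to 0.13), and the 2 mutations differed by 0.07 ± 0.17, so that Dnmt3a was the 1 gene of the 9 whose F1178L mean was not below the R1279Q mean. Its R1279Q difference to MYCN was -0.29 ± 0.18 (limma adjusted p = 0.25), next to -0.26 for Eed. With array weights Dnmt3a was called lower in MYCN/Alk (-0.29, limma adjusted p = 0.030) and in R1279Q tumors (-0.34, limma adjusted p = 0.043). Array weights also raised the number of calls over all rows in both comparisons. Dnmt3a was also called lower in MYCN/Alk tumors of 129B6F1 mice only (-0.51, limma adjusted p = 0.044) and without MYCN tumors 22 and 26 (-0.37, limma adjusted p = 0.049).

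Uhrf1, the reader of hemimethylated DNA, was at 7.98 in MYCN tumor 22 and at 8.87 to 9.41 in the other MYCN tumors (median of all 10, 9.09). R1279Q tumors ran from 7.51 to 9.46 (median 8.69) and F1178L tumors from 7.33 to 9.65 (median 8.33), the F1178L group holding both the lowest and the highest tumor of the series. The level was 1.60-fold lower in F1178L tumors than in MYCN tumors (-0.67 ± 0.24, limma adjusted p = 0.020) and 1.43-fold lower in MYCN/Alk tumors (-0.51 ± 0.21, limma adjusted p = 0.047). The second of these calls was lost in 21 of the 31 fits that left out 1 tumor.

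Hells, the remodeler needed for methylation of packed DNA, ran from 9.66 to 10.77 (median 10.26) in MYCN, from 9.13 to 10.77 (median 10.22) in R1279Q and from 8.38 to 10.54 (median 9.62) in F1178L tumors. It was 1.60-fold lower in F1178L than in MYCN tumors (-0.68 ± 0.23, limma adjusted p = 0.016), while the MYCN/Alk difference of -0.40 ± 0.20 did not pass (limma adjusted p = 0.11).

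Tet1 was at 8.13 in MYCN tumor 22 and at 8.71 to 9.09 in the other MYCN tumors (median of all 10, 8.86). R1279Q tumors ran from 7.95 to 9.25 (median 8.72) and F1178L tumors from 7.83 to 8.82 (median 8.37). It was 1.41-fold lower in F1178L tumors (-0.50 ± 0.15, limma adjusted p = 0.0062) and 1.25-fold lower in MYCN/Alk tumors (-0.32 ± 0.13, limma adjusted p = 0.046), a call that was lost in 21 of 31 fits with 1 tumor left out. Thus genes for writing, copying and removing methylation were all among those called lower in F1178L tumors.

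For the R1279Q mutation, all 9 differences to MYCN were below 0, from -0.09 for Dnmt1 to -0.39 ± 0.20 for Ezh2, and their median was -0.26, against -0.01 over all rows. None passed. At an unadjusted p under 0.05, limma found 1 of the 9 genes, Eed (-0.26 ± 0.11, limma adjusted p = 0.080), and the methods' Student test 2, whereas 32.5% and 33.7% of all rows reached it, so that the set lay below the background share. Eed passed in a fit without R1279Q tumor 8, its highest (limma adjusted p = 0.025), and without MYCN tumors 22 and 26 (limma adjusted p = 0.043). The intervals of several genes reached differences as large as those of F1178L, for example -0.81 to 0.03 for Ezh2, so an equal level in R1279Q and MYCN tumors was not shown.

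**Figure D2:**
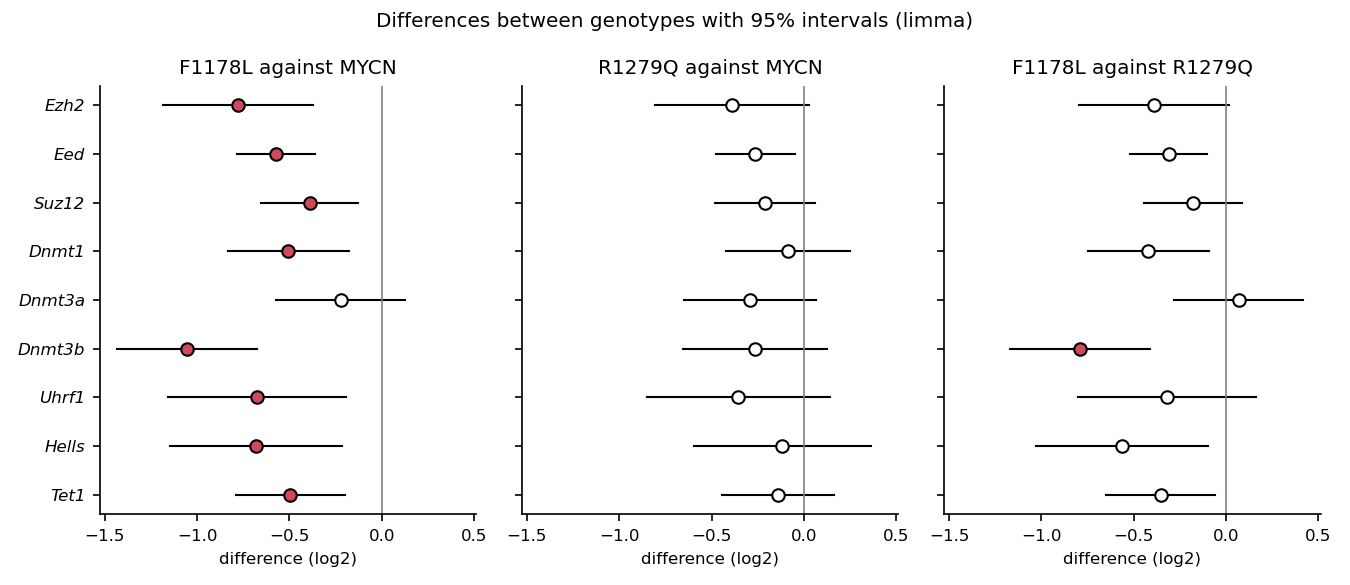
Difference in level (log2) of the 9 genes tested between pairs of genotypes, with 95% intervals from limma; filled points passed an adjusted p of 0.05 over 9322 rows. For F1178L against MYCN 8 points are filled, for R1279Q against MYCN none, and for F1178L against R1279Q Dnmt3b alone.

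The mutations were then compared directly. Of the 9 genes, 1 differed, against 5.7% of rows called lower in F1178L. Dnmt3b was lower in F1178L than in R1279Q tumors (measured difference -0.79 ± 0.19, limma adjusted p = 0.012). It was 1.59-fold lower with values under log2 4 set to 4. This size is not a strict bound, as 7 of 11 F1178L tumors and 1 of 10 R1279Q tumors were below that level. Eed (-0.31 ± 0.10) was next to the threshold (limma adjusted p = 0.053). Dnmt1 (-0.42 ± 0.16), Hells (-0.56 ± 0.23) and Tet1 (-0.35 ± 0.15) gave limma adjusted p-values of 0.092, 0.11 and 0.11. The background and sex of the 2 groups were not balanced, and with both as covariates in the 18 tumors the measured Dnmt3b difference was -0.84 ± 0.22 (limma adjusted p = 0.050, just above the threshold).

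Genetic background was asked about in the same 18 tumors. With the mutation as a covariate, none of the 9 genes differed between 129B6F1 and 129S2 tumors, while 1.58% of rows were called higher and 3.41% lower in 129B6F1. At an unadjusted p under 0.05, which 24.1% of all rows reached, limma found 4 of the 9 genes: Dnmt1 (0.52 ± 0.16 higher in 129B6F1, limma adjusted p = 0.060), Dnmt3a (-0.45 ± 0.14, limma adjusted p = 0.067), Eed (0.26 ± 0.12) and Dnmt3b (0.44 ± 0.21). Without R1279Q tumor 9 both Dnmt1 (limma adjusted p = 0.017) and Dnmt3a (limma adjusted p = 0.027) passed, and without F1178L tumor 37 Dnmt1 passed (limma adjusted p = 0.030). Dnmt1 and Dnmt3a thus had differences of opposite sign.

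Background was then compared within each mutation. Hells was at 8.38, 9.06, 9.16 and 9.50 in the 4 F1178L tumors of 129S2 mice and between 9.62 and 10.54 in the 6 of 129B6F1 mice, without overlap, as for 3.67% of all rows in this direction. Dnmt1 was at 9.76, 10.17, 10.26 and 10.42 in 129S2 and between 10.36 and 11.27 in 129B6F1, where tumor 37 alone was below the highest 129S2 tumor. In a model of the 4 combinations of mutation and background, Hells was 2.14-fold higher (1.10 ± 0.26, limma adjusted p = 0.027) and Dnmt1 1.66-fold higher (0.73 ± 0.20, limma adjusted p = 0.042) in 129B6F1, against 2.98% of rows called higher. In a fit of the 10 F1178L tumors by themselves neither passed (limma adjusted p = 0.052 and 0.077), and 0.88% of rows were called higher. Suz12 differed by 0.41 ± 0.16 in the same direction and did not pass (limma adjusted p = 0.12). Within the R1279Q tumors, 3 of 129B6F1 and 5 of 129S2 mice, none of the 9 genes passed in limma, with Dnmt3a and Tet1 at an unadjusted p under 0.05. There Hells differed by -0.44 ± 0.29 and Dnmt1 by 0.26 ± 0.23, while Tet1 (-0.66 ± 0.24), Dnmt3b (0.59 ± 0.32) and Dnmt3a (-0.55 ± 0.21) were farther from 0 than within F1178L tumors, where they were -0.08 ± 0.21, 0.33 ± 0.28 and -0.37 ± 0.19.

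The same 4 tumors set the difference between mutations within 129S2. There the F1178L mice were 5 to 6 weeks old and the R1279Q mice 8 to 11 weeks, and the R1279Q tumors were all from males. Age and mutation thus cannot be told apart within 129S2. Hells was at 9.92 to 10.65 in the 5 R1279Q tumors, above all 4 F1178L tumors (-1.21 ± 0.27, limma adjusted p = 0.013), a separation that 14.4% of all rows showed in this direction. Dnmt1 was at 10.64 to 11.13 there, again above all 4 (-0.73 ± 0.21, limma adjusted p = 0.035). These were the 2 genes called in the model of 4 combinations, against 6.59% of rows called lower. In a fit of the 9 tumors of 129S2 mice by themselves 4 genes were called, Suz12 (limma adjusted p = 0.037) and Tet1 (limma adjusted p = 0.018) in addition, against 16.4% of rows. Within 129B6F1, with 6 and 3 tumors, Hells differed by 0.32 ± 0.28 and Dnmt1 by -0.25 ± 0.22, and no row of the 9322 passed, with 909 rows (9.75%) at an unadjusted p under 0.05. Whether the mutation effect itself differed between backgrounds was tested as an interaction. It did not pass for any of the 9 genes, with 2 at an unadjusted p under 0.05 in limma, as for 15.2% of rows (Hells 1.54 ± 0.39, limma adjusted p = 0.11, and Suz12 0.78 ± 0.24, limma adjusted p = 0.15), and 7 rows passed in all.

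**Figure D3:**
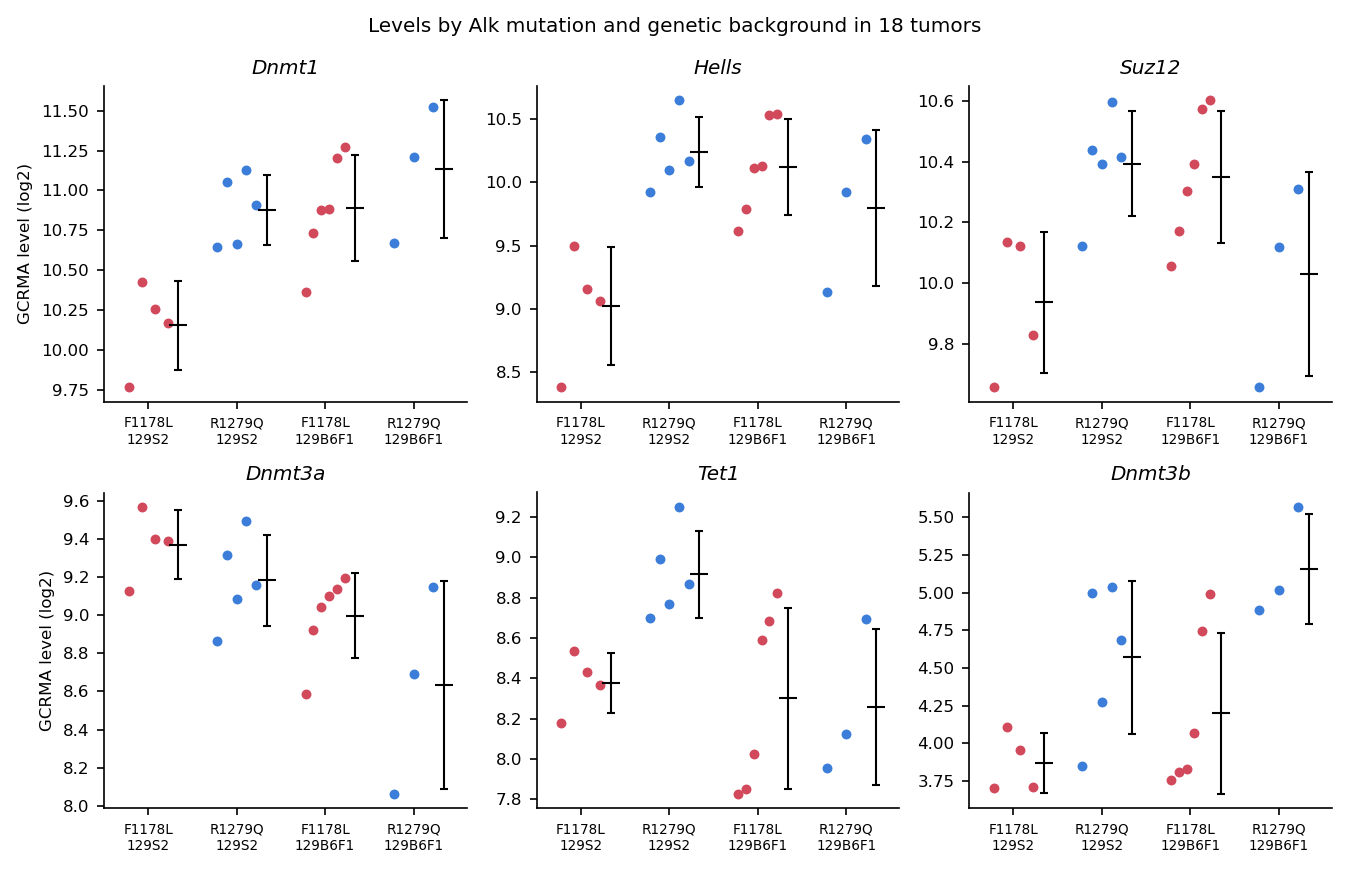
Deposited level (log2) of 6 genes in the 18 tumors with a given background, by Alk mutation and background, with mean ± SD as bars (4, 5, 6 and 3 tumors from left to right). For Hells and Dnmt1 the 4 F1178L tumors of 129S2 mice lie below the 5 R1279Q tumors of 129S2 mice, while the Dnmt3a medians are 9.39 and 9.16 in 129S2 and 9.07 and 8.69 in 129B6F1 (F1178L and R1279Q).

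The DNA replication genes, a list of 21 tested genes such as Mcm2, Cdc45 and Gins2, moved with the set across genotypes. Of them, 19 were lower in the MYCN/Alk tumors (median -0.64), 20 in F1178L (median -0.90) and 3 in R1279Q tumors (median -0.40). Their mean level was 9.50 ± 0.38 (SD, n = 10) in MYCN tumors. It was 9.08 ± 0.34 (SD, n = 10) with R1279Q, and 8.51 ± 0.53 (SD, n = 11) with F1178L. Of 15 mitosis genes, 11 were lower in MYCN/Alk, 15 in F1178L and 2 in R1279Q tumors. Of all rows, 21.6%, 26.4% and 7.04% were called lower in MYCN/Alk, F1178L and R1279Q tumors. When the mean of the replication genes was added to the model as a covariate, none of the 9 genes passed in any comparison of genotypes (limma). Of all rows, 16.5% were then called for MYCN/Alk, 13.7% for F1178L and 12.6% for R1279Q against MYCN, but 0.29%, or 27 rows, for F1178L against R1279Q, where a count of 0 says little. At an unadjusted p under 0.05 there were 2 of the 9 for MYCN/Alk against MYCN, Eed and Hells (31.1% of rows), and 1 each for F1178L (28.8%) and R1279Q (27.9%) against MYCN and for F1178L against R1279Q (12.6%). With this covariate the F1178L difference to MYCN was 0.0098 for Ezh2, 0.16 for Dnmt1, 0.33 for Uhrf1 and 0.35 for Hells, each of the opposite sign to the difference without it, whereas Eed (-0.27), Dnmt3b (-0.37) and Tet1 (-0.36) kept the sign at a smaller size, with limma adjusted p-values of 0.14, 0.21 and 0.24. In whole tumor RNA, fewer cells in S phase and less RNA of a gene per cell cannot be told apart.

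Within genotypes, the relation to the replication mean was computed for the 9 genes in each of 3 groups, 27 relations in all, of which 15 passed (Pearson's r, permutation test with 100000 resamples, two-sided, adjusted over the 27). By Spearman's rho, adjusted in the same way, 9 passed, 6 in F1178L, 2 in R1279Q and 1 in MYCN tumors. The share of all rows that would pass was not computed, so these counts are not shown to be particular to the set. In F1178L tumors 7 of 9 genes passed by r. Hells had r = 0.92 (n = 11, permutation p = 0.00014, adjusted p = 0.0019) and Spearman's rho = 0.88 (permutation p = 0.00082, adjusted p = 0.0086), and r = 0.84 without the 2 tumors farthest from the median. For Dnmt1 in the same tumors r was 0.86 (n = 11, permutation p = 0.00075, adjusted p = 0.0051) with rho = 0.84 (permutation p = 0.0022, adjusted p = 0.012), and r = 0.72 without the 2 farthest tumors. For Eed r was 0.82 (n = 11, permutation p = 0.0019, adjusted p = 0.010) with rho = 0.88 (permutation p = 0.00067, adjusted p = 0.0086), and r = 0.72 without them.

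In R1279Q tumors 3 genes passed by r: Uhrf1 (r = 0.79, permutation p = 0.0035, adjusted p = 0.012, rho = 0.81, permutation p = 0.0069, adjusted p = 0.027), Hells (r = 0.79, permutation p = 0.0026, adjusted p = 0.010, rho = 0.87, permutation p = 0.0022, adjusted p = 0.012) and Suz12 (r = 0.74, permutation p = 0.010, adjusted p = 0.021, rho = 0.67, permutation p = 0.039, adjusted p = 0.087). Without the 2 farthest tumors their r was 0.74, 0.93 and 0.59. In MYCN tumors 5 genes passed by r, but tumor 22 lay far below the others on both axes. For Dnmt1 the relation remained without the 2 farthest tumors (r = 0.97, permutation p = 8e-05, adjusted p = 0.0019, rho = 0.90, permutation p = 0.00095, adjusted p = 0.0086, and r = 0.87 without them). For Uhrf1 (r = 0.96, permutation p = 0.00071, adjusted p = 0.0051, rho = 0.72, permutation p = 0.024, adjusted p = 0.061) it fell to 0.64, for Dnmt3b (r = 0.79, permutation p = 0.0039, adjusted p = 0.012, rho = 0.64, permutation p = 0.054, adjusted p = 0.10) to 0.55, for Hells (r = 0.69, permutation p = 0.013, adjusted p = 0.024, rho = 0.65, permutation p = 0.048, adjusted p = 0.099) to 0.41 and for Tet1 (r = 0.88, permutation p = 0.015, adjusted p = 0.026, rho = 0.50, permutation p = 0.15, adjusted p = 0.21) to 0.35, so that these rest in part on those tumors. Dnmt3a did not pass in any genotype, with r = -0.15 in F1178L tumors (n = 11, permutation p = 0.65, adjusted p = 0.71, rho = -0.36, permutation p = 0.27) and -0.53 without the 2 farthest.

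**Figure D4:**
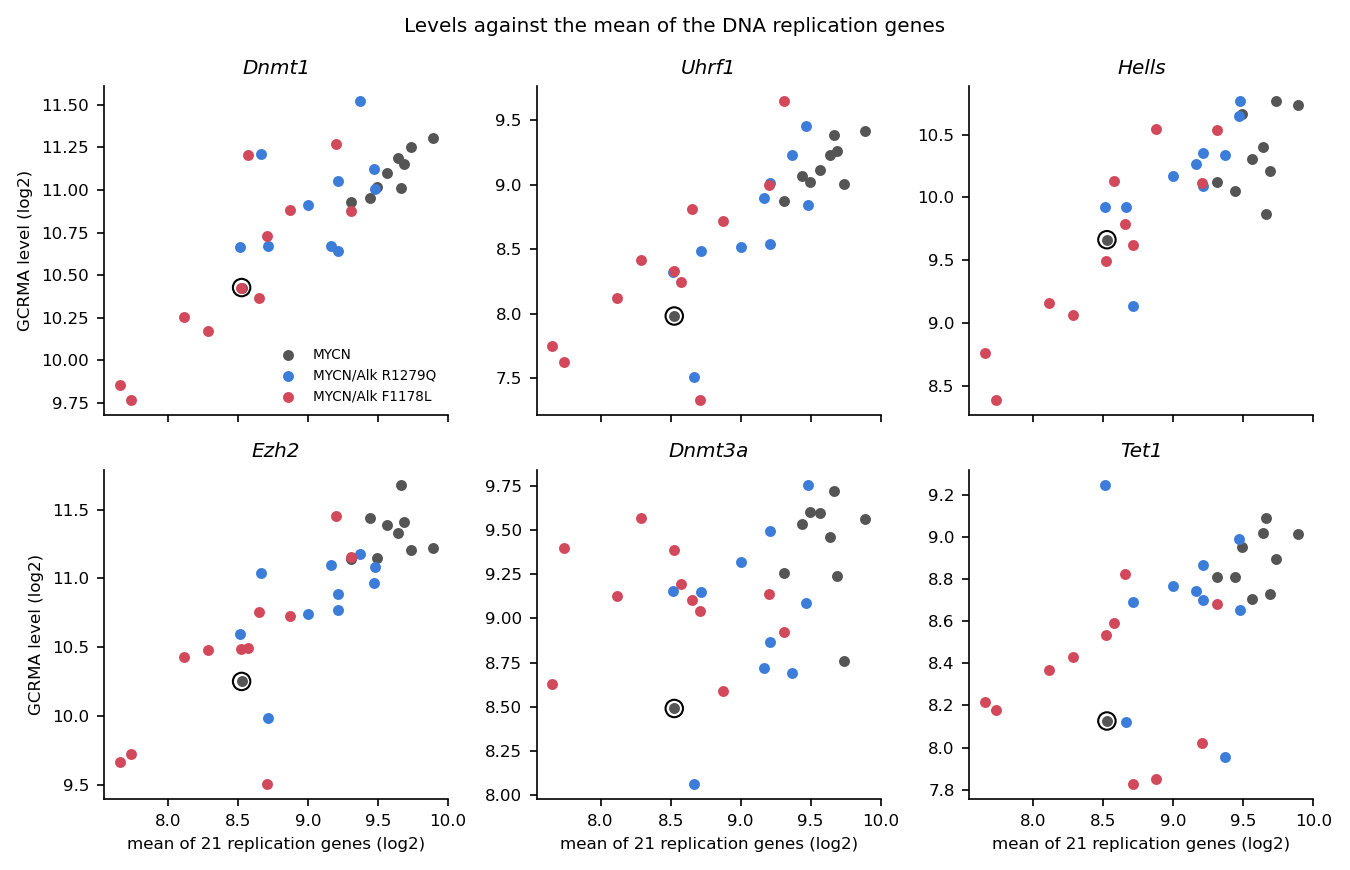
Deposited level (log2) of 6 genes against the mean log2 level of 21 DNA replication genes in 31 tumors, coloured by genotype, with MYCN tumor 22 ringed. In the F1178L tumors Dnmt1, Uhrf1, Hells and Ezh2 pass the test of Pearson's r, whereas Dnmt3a and Tet1 do not (r = -0.15 and 0.03).

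Among themselves the genes were compared as deviations from their genotype means over the 31 tumors (36 pairs, permutation within genotype, two-sided, adjusted over the 36), and 19 pairs passed by Pearson's r, all of them positive, and 16 by Spearman's rho. The closest were Hells and Dnmt1 (r = 0.76, permutation p = 5e-05, adjusted p = 0.0014, rho = 0.72, permutation p = 6e-05, and r = 0.70 without the 2 farthest tumors) and Uhrf1 and Ezh2 (r = 0.75, permutation p = 8e-05, adjusted p = 0.0014, rho = 0.76, permutation p = 1e-05, the smallest value the resamples can give, and r = 0.65 without the 2 farthest). Within PRC2, Eed and Ezh2 had r = 0.245 (permutation p = 0.19, adjusted p = 0.27, rho = 0.27, permutation p = 0.16). Dnmt3a passed by r with Tet1 (r = 0.55, permutation p = 0.0028, adjusted p = 0.0083) and with Suz12 (r = 0.495, permutation p = 0.0060, adjusted p = 0.014) but with neither by rho (0.40 with adjusted p = 0.069 and 0.30 with adjusted p = 0.17), and without the 2 farthest tumors the r was 0.34 and 0.19. By contrast, Dnmt3a and Dnmt1 had r = -0.03 (permutation p = 0.87, adjusted p = 0.88, rho = -0.18, permutation p = 0.36). How many pairs among all rows would pass was not computed, so the count of 19 is not shown to be particular to the set.

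**Figure D5:**
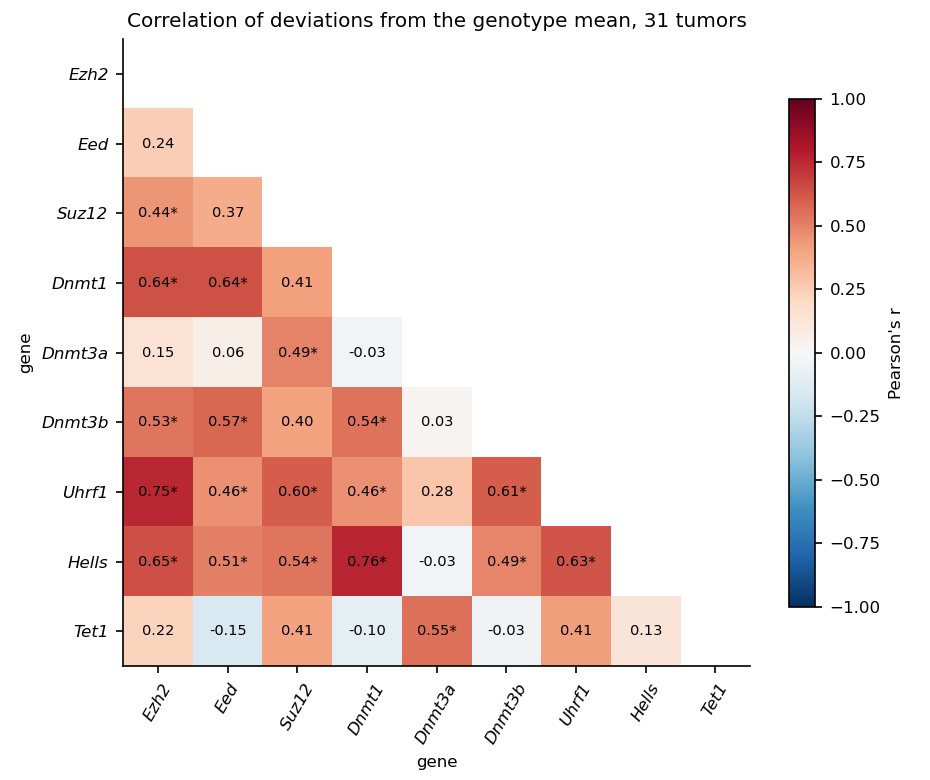
Pearson's r of the deviations from the genotype mean for each pair of the 9 genes tested, over 31 tumors; an asterisk marks an adjusted permutation p under 0.05. Ezh2, Eed, Suz12, Dnmt1, Dnmt3b, Uhrf1 and Hells share most of the 19 marked pairs, and Dnmt3a is marked with Suz12 and with Tet1.

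For each gene the 3 tested rows outside the set with the most similar deviations were looked up over the 31 tumors. Dnmt1 was most like Cdc45 (r = 0.94), a component of the replicative helicase, followed by Pold1 and Lrwd1 (0.92 for both). Uhrf1 was most like Mcm2 (0.91), another helicase subunit, Hells like Orc6 (0.87), of the origin recognition complex, Dnmt3b like Gins1 (0.84) and Eed like Pole2 (0.79), a subunit of DNA polymerase epsilon. Ezh2 was most like Sapcd2 (0.91), with Fbxo5, an inhibitor of the anaphase-promoting complex, also close (0.87), and Suz12 like Melk (0.89), a mitotic kinase. Dnmt3a stood closest to Nup50 (0.78), a nuclear pore protein, and Tet1 to Rsf1 (0.81), a chromatin remodeler subunit that was itself higher in MYCN/Alk tumors (0.38, limma adjusted p = 0.0018).

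Partners of the set were counted from lists, and each count stands against the 21.6% of all rows called lower in MYCN/Alk, 26.4% in F1178L and 7.04% in R1279Q tumors relative to MYCN, or the 5.7% called lower in F1178L relative to R1279Q tumors. Of 6 tested subunits of PRC2 outside the set, 3 were lower in the MYCN/Alk group than in MYCN tumors, with a median of -0.22. They were the histone chaperones Rbbp4 (-0.36 ± 0.09, limma adjusted p = 0.0018) and Rbbp7 (-0.21, limma adjusted p = 0.020) and the recruiting subunit Jarid2 (-0.50, limma adjusted p = 0.010). In F1178L tumors 5 of 6 were lower, Mtf2 and Aebp2 in addition, and Aebp2, Mtf2 and Rbbp4 were also lower in F1178L than in R1279Q tumors. Of 14 tested subunits of Polycomb repressive complex 1 (PRC1), 4 were lower, close to the share of all rows. Among them were Pcgf5 (-1.27, limma adjusted p = 0.0032) and Bmi1 (-0.68, limma adjusted p = 0.0019), and 1 subunit, Yaf2, was higher (0.33, limma adjusted p = 0.0035). Of 5 tested genes on a list of lysine 27 demethylases and of Bap1 with its partners Asxl1 and Asxl2, 2 were lower. They were the demethylase Kdm6b (-0.72, limma adjusted p = 0.0020) and Asxl2 (-0.35, limma adjusted p = 0.0081). The demethylase Kdm6a was at -0.15 (limma adjusted p = 0.45). The H3K4 methyltransferase Setd1b was lower (-0.78, limma adjusted p = 3.5e-06), 1 of 3 among 10 of the H3K4 and H3K36 list.

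On the methylation side, 4 of 7 partners of maintenance methylation were lower (median -0.32): Cdca7 (-1.24, limma adjusted p = 0.00033), which recruits HELLS, its relative Cdca7l (-0.93, limma adjusted p = 0.020), the deubiquitinase Usp7 (-0.54, limma adjusted p = 0.0026) and Dmap1 (-0.32, limma adjusted p = 0.044). Uhrf2, the paralog of Uhrf1, was at 0.13 (limma adjusted p = 0.45). Of 8 tested genes of demethylation, 3 were lower, Idh2 (-0.88, limma adjusted p = 5.5e-05), the glycosylase Mbd4 (-0.65, limma adjusted p = 0.0087) and Tet2 (-0.36, limma adjusted p = 0.044), and Idh1 was higher (0.60, limma adjusted p = 0.015), so the cytosolic and the mitochondrial enzyme that make the cofactor of the TET proteins went opposite ways. Of 5 methyl-CpG readers, 3 were lower, Zbtb38 (-1.16, limma adjusted p = 0.037), Mbd2 (-0.525, limma adjusted p = 0.00016) and Zbtb33 (-0.22, limma adjusted p = 0.015). Zbtb4 was higher (0.77, limma adjusted p = 0.0012). Of 4 tested genes of methyl donor synthesis, 3 were lower, the serine hydroxymethyltransferases Shmt2 (-2.17, limma adjusted p = 2.7e-05) and Shmt1 (-1.25, limma adjusted p = 1.6e-05) and the folate enzyme Mthfd1 (-1.11, limma adjusted p = 2.1e-06), and the same 3 were lower in R1279Q tumors taken alone. Of 5 tested genes of H3K9 methylation 3 were lower, with Trim28 at -0.52 (limma adjusted p = 0.00061), and of 11 E2F and RB family genes 6 were lower, with E2f1 at -0.74 (limma adjusted p = 0.013).

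Genes that these systems are known to silence stayed mostly below log2 4. Of 11 germline genes on a list of methylation targets, Tex19.1 alone passed the filter and was lower in the MYCN/Alk tumors (limma adjusted p = 0.042), with a wide spread in MYCN tumors from 2.32 to 8.60. It was above log2 4 in 5 MYCN, 3 R1279Q and 3 F1178L tumors, and 1.83-fold lower with values under log2 4 set to 4. This size is not a bound, as MYCN tumors were also under log2 4. Of 15 genes known as PRC2 targets, 2 passed the filter, Cdkn1c (-0.21, limma adjusted p = 0.69) and Neurod1 (-0.89, limma adjusted p = 0.34), and Pax3, Pax6, Gata4 and Lhx2 were below log2 4 in all 31 tumors. Of the tested genes of both lists, Tex19.1, Cdkn1c and Neurod1, none passed as higher in MYCN/Alk tumors. The others were not tested, so these counts cannot show whether they were higher. Among untested germline genes, Tex101 was above log2 4 in 7 tumors, and Dazl, Sycp3, Slc25a31 and Stk31 in 1 tumor each. Slc25a31 had a mean of 3.43 (SD 2.87) in R1279Q tumors. Among untested PRC2 targets, Bmp2 was above log2 4 in 7 tumors, Cdkn2b in 4 and Sox17 in 1. Cdkn2a, the tumor suppressor locus known as a PRC2 target, was above log2 4 in 7 tumors and not tested, with a mean of 2.59 in the MYCN group, 2.74 with R1279Q and 3.85 with F1178L.

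Markers of other cell types moved with genotype, in a comparison in which 21.6% of all rows were called lower. Of the endothelial and mural list, 4 of 4 tested genes were lower in MYCN/Alk tumors (median -1.59), and the log2 of their summed level ran from 10.61 to 12.48 in MYCN, from 6.58 to 12.93 in R1279Q and from 8.29 to 11.81 in F1178L tumors. Of the 5 genes of this list that were not tested, Pecam1, Kdr and Tek were above log2 4 in 9, 8 and 8 tumors, with means of 4.81, 4.29 and 4.36 in MYCN, 3.16, 3.34 and 3.596 in R1279Q and 2.89, 2.76 and 3.36 in F1178L tumors, and Cdh5 and Flt1 in 1 tumor each. Of 8 tested macrophage genes 6 were lower (median -0.75), with summed levels of 10.73 to 12.06, 9.85 to 11.96 and 9.51 to 10.98. Of the erythroid list Alas2 alone was tested and was called lower (limma adjusted p = 0.00061), by at least 4.28-fold with values under log2 4 set to 4. Alas2 was above log2 4 in 10 of 10 MYCN, 1 of 10 R1279Q and 2 of 11 F1178L tumors, with Klf1 below log2 4 in all tumors. Of the Schwann cell list Fabp7 was called higher (limma adjusted p = 0.0014), by 8.29-fold with values under log2 4 set to 4. It was above log2 4 in 2 MYCN, 8 R1279Q and 9 F1178L tumors, while the defining markers Sox10, S100b and Erbb3 were below log2 4 in all tumors. Alas2 passed the filter mainly through the MYCN tumors and Fabp7 mainly through the MYCN/Alk tumors. Both calls therefore depend on the filter and are no support for a difference. Of 6 sympathetic markers, Dbh (2.69, limma adjusted p = 1.1e-06), Th (2.05, limma adjusted p = 2.3e-07) and Isl1 (0.43, limma adjusted p = 0.017) were higher, with summed levels of 12.39 to 13.44 in MYCN, 13.32 to 14.57 in R1279Q and 13.90 to 14.56 in F1178L tumors, and none of 5 tested fibroblast genes passed. The part of these cells in the differences of the set was not tested.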

How the data were processed

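Levels are the deposited log2 values of 31 Affymetrix mouse arrays, 1 per tumor, which the authors normalized by GCRMA with Brainarray annotations (version not given in the sources used here). GCRMA corrects background and summarizes probes to 1 value per gene, so low values carry little information. Of 17306 rows, 16464 had 1 gene symbol and 842 were kept unnamed. No scanner data were reprocessed, and the closest pair of arrays had r = 0.988. Precision is set by how many tumors there were and by how far a signal exceeded background.

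Groups follow the genotype given in each title. The 9322 rows that exceeded log2 4 in 10 or more tumors were fitted with limma 3.58.1 (R 4.3.3) on 3 genotypes, the 18 tumors of given background with mutation and background, and p-values were adjusted over all rows tested. The methods' Student test was an alternative, as were the normalization, filter, moderation, array weights, covariates, subsets and leaving out each tumor. The limma step was tested on simulated data. Correlations used permutation tests (Python 3.11.15, scipy 1.17.1) and figures matplotlib 3.10.9. The genes and the lists were chosen with earlier results of these data known. All 10 members are named. For the other lists the rule was to name up to 4 genes past the threshold with the largest difference between MYCN/Alk and MYCN. It was not followed for every list, and further genes were named after their values were seen.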

Additional observations from a re-analysis of the deposited data

Results flagged for a closer look

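The highest or lowest tumor of each group of 4 to 10 tumors was compared with the others, its gap to the nearest tumor being set against the group's range. Of 50 groups of the 10 genes examined, 9 had such a tumor. Chance gives about 1 in 20 groups.

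MYCN tumor 22 accounted for 5 of them. Its Ezh2 level was 10.25, with the other 9 MYCN tumors at 11.14 to 11.68, its Dnmt1 level was 10.43 (others 10.93 to 11.30), its Uhrf1 level was 7.98 (others 8.87 to 9.41) and its Tet1 level was 8.13 (others 8.71 to 9.09). Its Ezh1 level was 3.75 (others 1.97 to 2.51), which is high in the group but below log2 4.

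R1279Q tumor 9 was low for Ezh2, at 9.99 with the other 9 tumors at 10.59 to 11.18, and for Hells, at 9.13 with the others at 9.92 to 10.77. R1279Q tumor 5 was high for Ezh1, at 2.90 with the others at 1.97 to 2.30. F1178L tumor 31 was low for Ezh2 among the 4 tumors of 129S2 mice, at 9.72 with the others at 10.43 to 10.49.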

How the results depend on the processing

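Of 552 values of single genes under planned settings that leave out no single tumor, 451 kept direction and side of the threshold, 39 lost and 31 gained a call and 31 changed sign. Of the 1161 with 1 tumor left out, 1087, 47, 18 and 9 did so. Signal near background limits Dnmt3b, whose size in F1178L against MYCN tumors is a bound, and Ezh1 could not be tested. No paired analysis was possible because no 2 groups share a replicate number. The causes of these changes were not tested.

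Of the 9 genes, 6 were called for MYCN/Alk against MYCN, and 3 without the filter, with quantile normalization and with equal medians (Suz12, Uhrf1 and Tet1 were lost in each), 9 with array weights, 0 with the replication mean as a covariate, 2 with MYCN/Alk tumors of 129B6F1 only, and 3 to 8 with 1 tumor left out (3 without MYCN tumor 21, 23, 26, 33 or 34). For F1178L against MYCN, 8 were called, 3 with 129B6F1 only, 0 with the covariate, and 8 with any tumor left out. For R1279Q against MYCN, 0 were called, 4 with array weights, 1 with 129S2 only, 1 without MYCN tumors 22 and 26 (chosen after seeing the data), and 0 to 1 with 1 tumor left out (Eed without tumor 8). For F1178L against R1279Q, 1 was called, 8 with array weights, 2 with trended and robust moderation (Eed added), 4 within 129S2, 0 with the replication covariate, 0 within 129B6F1 and 0 after adjusting for sex and background. It was 1 to 3 with 1 tumor left out (3 without F1178L tumor 1 or 2, and 2 without F1178L tumor 4, 11 or 38 or R1279Q tumor 5, 8, 14 or 16). For 129B6F1 against 129S2, 0 were called, 2 with array weights, and 0 to 2 with 1 tumor left out (2 without R1279Q tumor 9, 1 without F1178L tumor 37). The interaction gave 0 throughout. With mitosis genes in place of replication genes, 16 of 27 relations passed by r and not 15, and 5 by rho and not 9.

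Changes of sign, none past the threshold, were as follows. With the replication covariate, differences of MYCN/Alk to MYCN were 0.058 (Suz12), 0.18 (Dnmt1), 0.20 (Uhrf1) and 0.34 (Hells), those of F1178L to MYCN 0.0098 (Ezh2), 0.11 (Suz12), 0.16 (Dnmt1), 0.33 (Uhrf1) and 0.35 (Hells), those of R1279Q to MYCN 0.002 (Suz12), 0.20 (Dnmt1), 0.024 (Dnmt3b), 0.070 (Uhrf1) and 0.32 (Hells), and those of F1178L to R1279Q 0.065 (Ezh2), 0.11 (Suz12), 0.26 (Uhrf1) and 0.032 (Hells). With 129S2 only, Dnmt3a was 0.048 in F1178L and Tet1 0.10 in R1279Q against MYCN. With 129B6F1 only, Dnmt1 was 0.10 and Dnmt3b 0.066 in R1279Q against MYCN, and F1178L to R1279Q was 0.32 (Suz12), 0.22 (Uhrf1), 0.32 (Hells) and 0.043 (Tet1). Background within R1279Q gave -0.059 (Ezh2), -0.37 (Suz12), -0.36 (Uhrf1) and -0.44 (Hells). The Eed interaction was -0.001 with sex as a covariate. With 1 tumor left out, F1178L to R1279Q ran from -0.037 to 0.15 for Dnmt3a, background from -0.011 to 0.19 for Suz12 and from -0.0044 to 0.35 for Uhrf1, and the interaction from -0.20 to 0.21 for Eed and from -0.11 to 0.43 for Dnmt3a.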
